A study of Mus musculus with 10 samples.

Results

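Mesenchymal cells of the embryonic mouse pancreas were followed over 3 stages in the version 1 single-cell RNA libraries of the series. Cells were chosen by measured UMI counts of 8 genes. A barcode counted as mesenchymal when it had at least 200 genes, at least 5 unique molecular identifiers (UMIs, each marking 1 captured mRNA) of *Col3a1*, *Col1a1* and *Col1a2* together, under 3 UMIs of *Acta2*, and 0 UMIs of the mesothelial gene *Upk3b*, the epithelial gene *Epcam*, the endothelial gene *Pecam1* and the leukocyte gene *Ptprcap*. This gate took 7177 of the 15047 version 1 barcodes with enough genes, out of 58120 barcodes in all libraries used. The E12.5 library gave 2234 of these cells, E14.5 batch 1 gave 1286, E14.5 batch 2 gave 2611 and E17.5 gave 1046. Pancreata came from embryos of the outbred Swiss Webster strain without a transgene or treatment, and all live cells were loaded without removing any cell type. Embryos were pooled before loading, so each library is 1 pool. Batch 1 was a single E14.5 litter, whereas batch 2 held 1 well of each stage. Enzymatic dissociation took 10 minutes for the youngest pancreata, 15 minutes for E14.5 and 30 minutes for the oldest, so that stage and time in the enzyme cannot be told apart. Whether embryos were male or female is not stated in the sources used here.

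Pancreatic mesenchyme is the loose connective tissue that surrounds the epithelial buds. It supplies secreted factors and extracellular matrix on which growth and branching of the epithelium depend, and early removal of the mesenchyme stunts the organ. Toward birth such embryonic fibroblasts usually divide less, lay down more fibrillar matrix and take on features of the fibroblasts of adult organs. The libraries allow the question of which transcripts of these cells differ between stages by more than the pools of one stage differ from each other.

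Levels are given as CPM, the UMI count of a gene in all gated cells of a library scaled to 1000000 UMIs outside the haemoglobin genes. Where a pair of E14.5 values stands, batch 1 comes before batch 2. The reads of this kit mark mostly 3′ ends of transcripts, so that values compare libraries within a gene, not different genes. The gated cells held 10489516 UMIs in the E12.5 library, 3291462 and 10480746 in batches 1 and 2 of E14.5, and 3113875 in the E17.5 library. Per cell the median was 4429, 2366, 3720 and 2745.5 UMIs in the same order. Haemoglobin transcripts, which mesenchymal cells do not make, took 0.583%, 0.795%, 2.99% and 6.28% of the gated UMIs and were left out of all totals. Any 2 version 1 libraries shared 19 to 35 barcode sequences. The E14.5 batches were distinct libraries, and the median gap between them over the genes tested was 0.236 on the log2 scale.

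Markers that the gate did not use were high in these cells. All 11 genes of the marker list had UMIs in the gated cells, and their summed level went from 2049 CPM at E12.5 through 4442 and 4963 CPM in batches 1 and 2 of E14.5 to 12399 CPM at E17.5, against 311 to 853 CPM in the other kept cells, those with at most 1 UMI of the gate collagens. *Pdgfra*, the receptor by which these cells are often sorted, had 38.1 CPM in the E12.5 library, 78.4 and 59.2 CPM in the E14.5 pools and 62.0 CPM in the E17.5 library. The intermediate filament gene *Vim* had 1355 CPM at E12.5, 624 and 1321 CPM in batches 1 and 2 of E14.5, then 2473 CPM at E17.5. *Upk3b*, *Epcam*, *Pecam1* and *Ptprcap* were at 0 by the gate, whereas the lists of mesothelial, epithelial, endothelial, glial, acinar and endocrine markers summed to levels above 0 but below those in the other cells of the same library. The gated cells of a library held 101 to 266 CPM of mesothelial, 38.4 to 186 of epithelial, 95.9 to 102 of endothelial and 41.8 to 74.2 CPM of glial markers. Acinar markers summed to 64.2 to 867 CPM and endocrine markers to 57.4 to 429 CPM, with E14.5 batch 1 highest for the acinar list and E17.5 for the endocrine list. The acinar gene *Ctrb1* had 0.671 CPM in the E12.5 library, 179 and 14.0 CPM in the E14.5 pools and 97.3 CPM in the E17.5 library, against 3948 CPM in the other cells at E17.5. Transcripts of the endocrine gene *Ins2* reached 87.2 CPM at most, against 19705 CPM in the other cells at E17.5. None of the mesothelial, acinar, endocrine, epithelial, endothelial, immune or glial markers tested was among the rising or falling genes described next. Without E14.5 batch 1, 2 acinar and 1 endocrine marker would be rising, but a single E14.5 library leaves no gap for the steps to exceed. With a limit of 10 collagen UMIs, 1 endocrine marker would be rising and 1 endocrine and 1 glial marker falling. In gated cells without a UMI of 6 cell cycle genes, 2 glial markers would be falling. The gate itself bore unevenly on the stages. Its collagens came to a median of 7 UMIs per gated cell in the earliest library and of 15, 18 and 19 in the later ones, and among gated cells of at least 2000 UMIs, thinned to that number, 30.8% of the E12.5 cells would still have passed the collagen limit, against 88.2% to 94.97% of the later cells. At E12.5, 417 gated cells had exactly 5 collagen UMIs and 413 barcodes left out had 4. The 796 E12.5 barcodes with 3 or 4 such UMIs had a summed level of the matrix list of 5221 CPM against 5636 CPM in the gated cells. At the later stages the 27 to 55 such barcodes of a library were lower than its gated cells, with 5117 against 10131 CPM and 6941 against 11488 CPM in batches 1 and 2 of E14.5 and 12769 against 23002 CPM at E17.5.

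A gene was named rising or falling when the step from E12.5 to the E14.5 mean and the step from there to E17.5 had the same sign, each was larger than the gap between the E14.5 batches, and E17.5 differed from E12.5 by at least 2-fold, all on log2(CPM + 5). Of 8218 genes with enough counts, 441 were rising (5.37%) and 476 falling (5.79%). These words are names given by the rule, which also places both E14.5 batches of such a gene between its other stages. The same values chose the genes, so their size is a description and carries no test. Scaling by trimmed means (TMM) changed the split to 600 rising and 289 falling, with the median gene 0.23 lower at E17.5 than at E12.5 on the log2 CPM scale and 0.0015 higher on the TMM scale. The median difference was 1.86 among rising genes and -1.31 among falling genes. On log2(CPM + 5), 28 rising and 3 falling genes differed by at least 16-fold. The added 5 CPM shrinks the ratio of genes that are low at 1 stage. Ratios of plain CPM therefore passed 16 in further falling genes, such as *Bves* with 39.0 at a log2(CPM + 5) difference of -3.42. Rising genes took the larger step before E14.5 in 243 of 441 cases, falling genes in 117 of 476. Just inside the 2-fold limit, at a log2 difference of 1 to 1.1, stood 42 rising and 99 falling genes, and just outside it, at 0.9 to 1, stood 32 and 123 genes that met the rest of the rule.

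**Figure D1:**
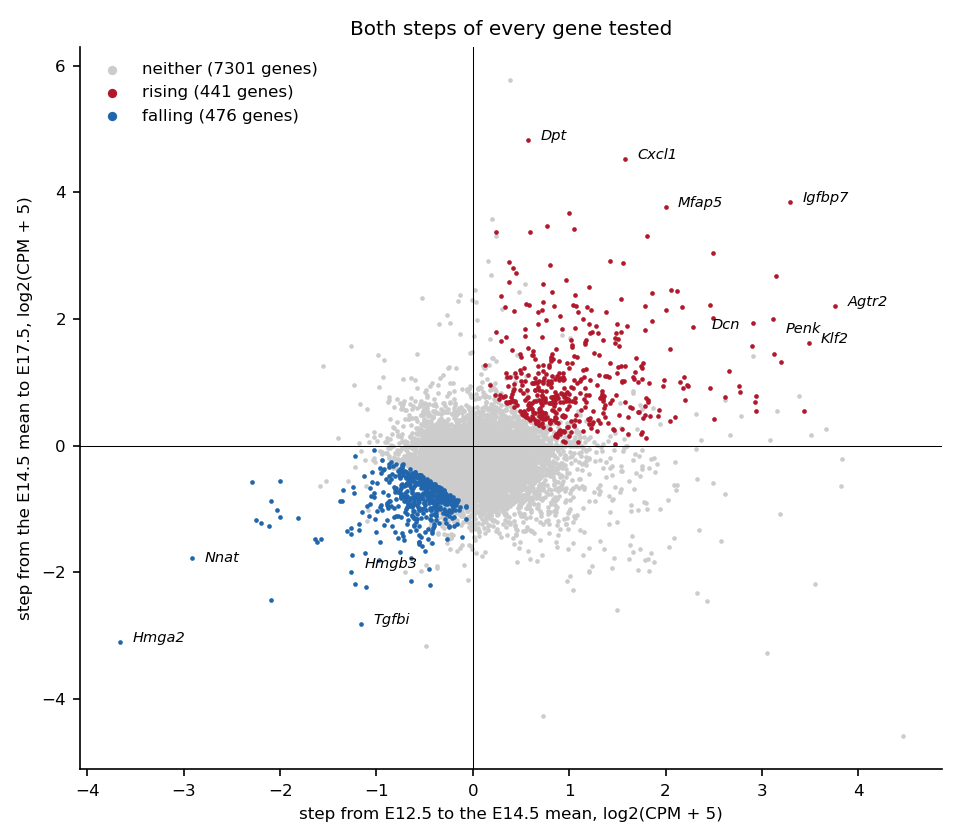
Step from E12.5 to the E14.5 mean (horizontal axis) against the step from there to E17.5 (vertical axis) for the 8218 genes tested, both in log2(CPM + 5). The 441 rising genes (red) lie upper right with *Igfbp7* farthest out, and the 476 falling genes (blue) lie lower left with *Hmga2* farthest out.

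The largest difference among falling genes belonged to *Hmga2*, an architectural chromatin protein of embryonic cells that is nearly absent from adult tissues. *Hmga2* (chr10:120361275-120476469, minus strand, GRCm38) had 723 CPM at E12.5, 60.6 and 45.1 CPM in batches 1 and 2 of E14.5, then 1.71 CPM at E17.5. The 7539 UMIs of the earliest library contrast with 5 UMIs in the last, a ratio of 422 with a 95% exact counting interval of 181 to 1300. In cells thinned to the same depth, a UMI of *Hmga2* was found in 65.4% of the E12.5 cells, in 11.2% and 7.90% of the cells of batches 1 and 2 of E14.5, and in 0.479% of the E17.5 cells, or in 82.9%, 13.2%, 13.8% and 0.478% without thinning. The other cells of the suspensions also had less *Hmga2* with stage, from 316 to 26.05 CPM between the outer stages, and at E17.5 3.73% of them had a UMI.

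*Hmga2* is a textbook target of the let-7 microRNAs, which bind short matches to their seed, bases 2 to 8, after the stop codon of a transcript. RefSeq lists 12 mature let-7 entries on GRCm38.p6, of which 11 share the seed printed in capitals in these 4 examples.
let-7a-5p: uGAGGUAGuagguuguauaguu
let-7b-5p: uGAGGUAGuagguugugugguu
let-7d-5p: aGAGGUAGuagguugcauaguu
let-7i-5p: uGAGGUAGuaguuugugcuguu
The letters of a seed match in a transcript are CTACCTC. The annotated *Hmga2* transcript has 3014 bases after its stop codon (GENCODE M21) and holds 4 matches, shown in capitals within 30 bases each and numbered from the stop codon on.
Hmga2 site 1, chr10:120364213-120364242: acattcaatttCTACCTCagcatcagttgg
Hmga2 site 2, chr10:120362976-120363005: actcctcaataCTACCTCtgaatgctacag
Hmga2 site 3, chr10:120362538-120362567: tttgcaaggaaCTACCTCcacacttccaaa
Hmga2 site 4, chr10:120361680-120361709: aaaacacactaCTACCTCttaagtcccagt
Only 5 of 8119 tested genes with an annotated transcript reached 4 matches, and 2 of these, *Hmga2* and *Igf2bp1*, were falling. At least 1 match occurred in 746 of the 8119 genes (9.19%), in 66 of 470 falling genes (14.0%) and in 29 of 440 rising genes (6.59%), with medians of 1088, 927 and 890 bases after the stop codon. A match is a description of the sequence. The libraries do not hold microRNAs, and whether they had a part in these levels was not tested.

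The genes listed as the let-7 and fetal RNA-binding programme had 6 members with enough counts, all lower at E17.5 than at E12.5, with a median of -1.25. Of these, 4 were falling. *Dusp9*, a phosphatase of MAP kinases, with 0 seed matches, had 42.1 CPM in the E12.5 library, 7.96 and 8.75 CPM in the E14.5 pools and 1.03 CPM in the E17.5 library. *Igf2bp1*, an RNA-binding protein that stabilises fetal transcripts, had 94.2 CPM at E12.5, 57.9 and 60.0 CPM in batches 1 and 2 of E14.5, then 32.9 CPM at E17.5. Its relative *Igf2bp3*, with 1 seed match, had 108 CPM in the E12.5 library, 80.9 and 72.9 CPM in the E14.5 pools and 46.9 CPM in the E17.5 library. *Igf2bp2* and *Hmga1*, with 1 seed match each, were not in the falling set. *Igf2bp2* had 97.5 CPM at E12.5, 118 and 88.2 CPM in batches 1 and 2 of E14.5, then 68.5 CPM at E17.5. In the depleted version 2 libraries, described further on, all 6 were again lower at E17.5, against 57.1% of all genes tested.

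**Figure D2:**
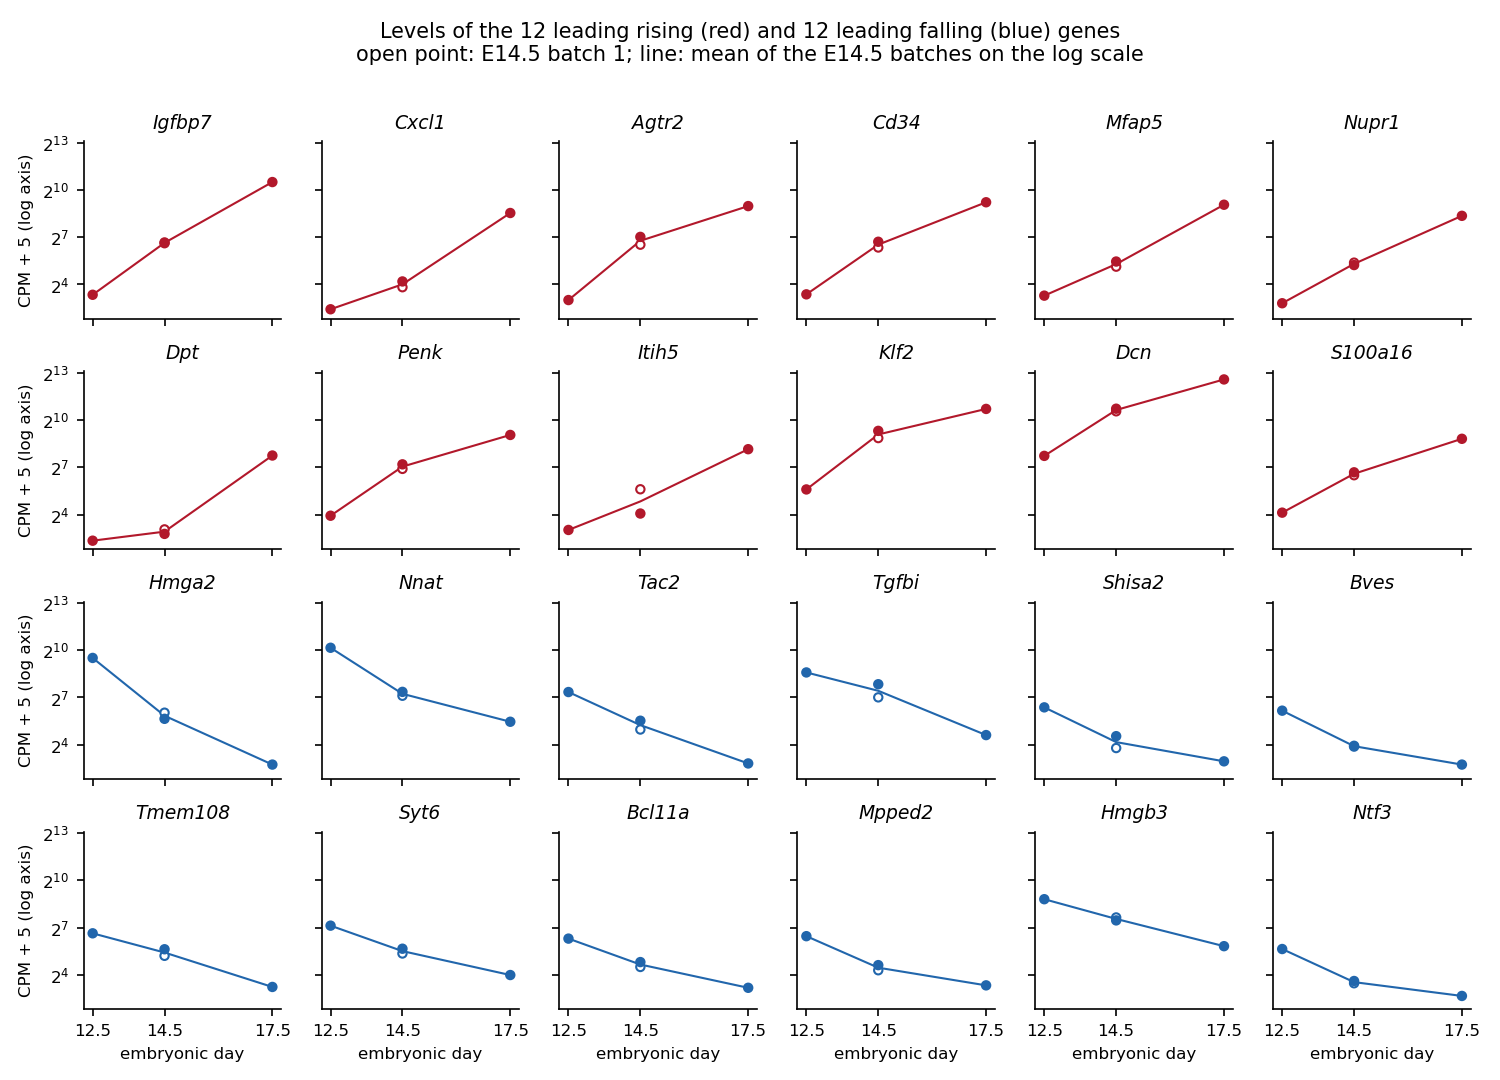
Levels in CPM + 5 (log axis) against embryonic day of the 12 rising genes (red) and 12 falling genes (blue) with the largest differences. Filled points are the batch 2 libraries and open points E14.5 batch 1. *Igfbp7* goes from 5.18 to 1436 CPM and *Hmga2* from 723 to 1.71 CPM, and the E14.5 batches lie between the other stages, as the rule requires.

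Other leading falling genes included secreted and membrane proteins. *Nnat*, an imprinted gene for a small membrane protein, had 1133 CPM in the E12.5 library, 133 and 159 CPM in the E14.5 pools and 39.1 CPM in the E17.5 library, whereas in the other cells it went from 449 to 1372 CPM. *Tac2*, which encodes the precursor of neurokinin B, had 158 CPM at E12.5, 26.3 and 41.1 CPM in batches 1 and 2 of E14.5, then 2.06 CPM at E17.5. The E17.5 library held 6 UMIs of it against 1644 at E12.5. *Tgfbi*, a matrix protein induced by TGF-beta, had 379.8 CPM in the E12.5 library, 124 and 224 CPM in the E14.5 pools and 19.5 CPM in the E17.5 library, with the larger step after E14.5. *Ntf3*, the growth factor neurotrophin 3, had 45.1 CPM at E12.5, 6.13 and 7.28 CPM in batches 1 and 2 of E14.5, then 1.37 CPM at E17.5. *Shisa2*, which holds immature FGF and Wnt receptors in the endoplasmic reticulum, had 78.0 CPM in the E12.5 library, 8.88 and 18.4 CPM in the E14.5 pools and 2.74 CPM in the E17.5 library. *Bves*, a cyclic AMP-binding membrane protein, had 66.7 CPM at E12.5, 9.80 and 10.3 CPM in batches 1 and 2 of E14.5, then 1.71 CPM at E17.5. *Ntf3* and *Bves* reached the mean of 10 CPM needed for testing only through E12.5, so the filter bore on their direction. The chromatin protein gene *Hmgb3* had 442 CPM in the E12.5 library, 195 and 171 CPM in the E14.5 pools and 51.7 CPM in the E17.5 library, and the transcriptional repressor gene *Bcl11a* had 74.1 CPM at E12.5, 17.8 and 23.2 CPM in batches 1 and 2 of E14.5, then 4.11 CPM at E17.5. *Syt6*, a synaptotagmin, *Mpped2*, a metallophosphoesterase, and *Tmem108*, a transmembrane protein, went from 135, 83.0 and 94.8 CPM at E12.5 to 10.97, 5.14 and 4.46 CPM at E17.5.

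Among rising genes, *Igfbp7* had the largest difference. It encodes a secreted protein related to the insulin-like growth factor binding proteins and deposited in the matrix (chr5:77349240-77408041, minus strand, GRCm38). Its level was 5.18 CPM in the E12.5 library, 96.5 and 93.0 CPM in the E14.5 pools and 1436 CPM in the E17.5 library, 277-fold higher at the last stage (95% exact counting interval 212 to 370). The E14.5 batches differed by 0.05 on the log2 scale. A UMI was found in 0.963% of the thinned E12.5 cells, in 15.9% and 12.3% of those of batches 1 and 2 of E14.5, and in 85.7% of those of E17.5, or in 1.88%, 16.9%, 20.4% and 89.5% without thinning. Other cells also carried the transcript, with 725 CPM and a UMI in 35.03% of them at E17.5.

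Several leading rising genes encode matrix proteins. *Dcn*, decorin, a proteoglycan that coats collagen fibrils, had 207 CPM at E12.5, 1496 and 1677 CPM in batches 1 and 2 of E14.5, then 6084 CPM at E17.5. It was found in 23.4% of the thinned E12.5 cells and 96.6% of the E17.5 cells (35.5% and 97.7% without thinning), against 4.22% of other cells at E17.5. *Mfap5*, a component of elastic microfibrils, had 4.79 CPM in the E12.5 library, 30.0 and 38.8 CPM in the E14.5 pools and 527 CPM in the E17.5 library. *Dpt*, dermatopontin, which binds decorin and assists fibril assembly, had 0.0959 CPM at E12.5, 3.37 and 1.87 CPM in batches 1 and 2 of E14.5, then 210.1 CPM at E17.5. The E12.5 library held 1 UMI of *Dpt* against 613 at E17.5, and the share of thinned cells with a UMI was 0 of 2181, which allows up to 0.138%, then 0.663% and 0.448%, then 25.4%. Without thinning the share was 0.0448% at E12.5, from the 1 cell with a UMI, and 30.1% at E17.5. *Itih5*, which binds hyaluronan, had 3.16 CPM in the E12.5 library, 43.8 and 11.8 CPM in the E14.5 pools and 279 CPM in the E17.5 library, and with a gap of 1.54 its E14.5 batches stood farther apart than those of any other gene named here among the leading 24.

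Other leading rising genes encode surface, secreted, nuclear or calcium-binding proteins. *Cd34*, a sialomucin of fibroblast progenitors and vessels, had 5.37 CPM at E12.5, 76.3 and 99.5 CPM in batches 1 and 2 of E14.5, then 588 CPM at E17.5. *Agtr2*, the type 2 receptor for angiotensin II (chrX:21484544-21489164, plus strand), had 3.07 CPM in the E12.5 library, 87.0 and 125 CPM in the E14.5 pools and 496 CPM in the E17.5 library. *Penk*, the precursor of the enkephalin opioid peptides, had 10.3 CPM at E12.5, 115 and 141 CPM in batches 1 and 2 of E14.5, then 526 CPM at E17.5. These 3 genes took the larger step before E14.5. By contrast, *Cxcl1*, a chemokine for neutrophils, took it after E14.5 with 0.384 CPM in the E12.5 library, 9.19 and 13.3 CPM in the E14.5 pools and 365 CPM in the E17.5 library. *Cxcl1* also reached the mean of 10 CPM needed for testing only through E17.5, so the filter bore on its direction. *Nupr1*, a stress-induced nuclear protein, had 2.01 CPM at E12.5, 36.8 and 32.6 CPM in batches 1 and 2 of E14.5, then 322 CPM at E17.5, and the other cells held more of it than the gated cells in all libraries but E17.5. *S100a16*, a calcium-binding protein, had 12.47 CPM in the E12.5 library, 85.4 and 97.8 CPM in the E14.5 pools and 443 CPM in the E17.5 library.

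*Klf2*, a transcription factor best known from vessels exposed to flow, was the only gene of the 12 leading rising genes with the opposite sign in version 2. Its version 1 levels were 43.4 CPM at E12.5, 458 and 630.0 CPM in batches 1 and 2 of E14.5, then 1661 CPM at E17.5, with the other cells going from 109 to 523 CPM over the same time. In version 2 it had 103, 176 and 44.7 CPM at the 3 stages in order of age.

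The version 2 libraries are samples that the rule did not use. They were made with a later kit from Swiss Webster pools of the same stages. Cells with CD140a, the protein of *Pdgfra*, had been depleted, so the few cells left in the gate are another selection. Dissociation again took 10, 15 and 30 minutes at the 3 stages, so stage and time in the enzyme cannot be told apart in version 2 either. The same gate found 997, 129 and 181 cells at the 3 stages, and with 1 pool a stage there is no test. In the 2 wells of E17.5, 1042 and 1102 kept barcodes had at least 5 gate collagen UMIs. The other gate genes left out 954 and 1009 of them. Gated cells of these wells had medians of 1.93 and 2.86 gate collagen UMIs per 1000 UMIs, against 7.05 at E17.5 in version 1. Markers of other lineages differed between the gated cells of the version 2 stages as well. At least 2-fold higher at E17.5 than at E12.5 were 3 of 4 acinar markers (median 3.03), 4 of 6 endocrine markers (median 2.25), 2 of 2 glial markers (median 4.41), 3 of 4 erythroid markers (median 1.58), 1 of 4 epithelial markers (median 0.27) and the 1 immune marker tested. At least 2-fold lower were 3 of 6 mesothelial markers (median -0.73), 1 endocrine marker and the 1 endothelial marker tested (-1.04). The part of these markers in the version 2 values was not tested. Of the 441 rising genes, 417 (94.6%) were higher at E17.5 than at E12.5 in version 2, and 286 (64.9%) at least 2-fold, against 42.9% and 7.24% of all genes tested. Of the 476 falling genes, 436 (91.6%) were lower and 146 (30.7%) at least 2-fold, against 57.1% and 5.6% of all genes. *Hmga2* had 556, 42.1 and 9.53 CPM at the 3 stages, *Igfbp7* had 5.07, 59.3 and 312 CPM, and *Dcn* had 158, 1583 and 1919.6 CPM. *Itih5*, with its wide gap in version 1, had 2.00, 10.9 and 257 CPM. *Cxcl1* had 0.614, 0 and 21.3 CPM, lower at the later 2 stages than in version 1 and with 4 UMIs in the E12.5 cells of either kit.

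**Figure D3:**
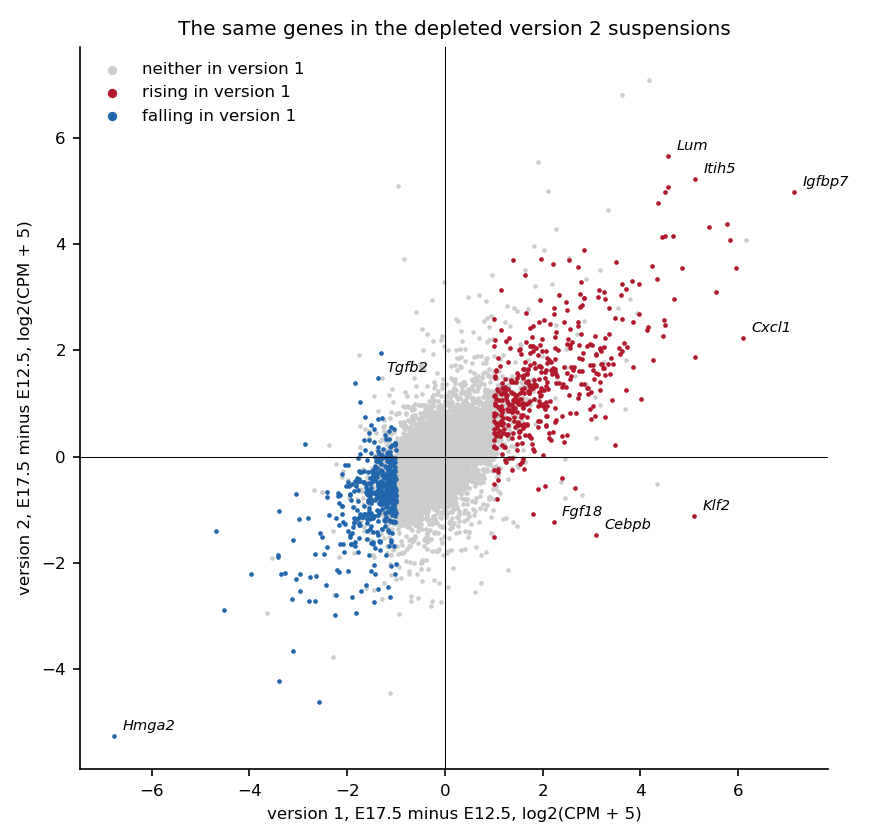
E17.5 minus E12.5 in log2(CPM + 5) in version 1 (horizontal axis) and in the CD140a-depleted version 2 libraries (vertical axis) for the 8218 genes tested. Of the rising genes (red), 417 of 441 lie above 0 and of the falling genes (blue) 436 of 476 below 0, with *Klf2*, *Cebpb*, *Fgf18* and *Tgfb2* on the other side.

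In lists of genes that share a role, members needed a mean of at least 10 CPM over the 4 libraries to be tested. A member high at a single stage could reach it through that stage alone. Examples are *Ccl11*, *C1ra*, *C1s1*, *Fgf7* and *Col5a3* through E17.5, and *Dusp9* and *Crabp2* through E12.5. The filter thus bore on the direction of such members. The list counts also use a test of the trend with embryonic day (edgeR quasi-likelihood, Benjamini-Hochberg adjusted p below 0.05, at least 2-fold) over the 4 libraries. Among all genes tested it called 351 (4.27%), of which 270 were higher with age (3.29%) and 81 lower (0.986%). It uses the contrast by which rising and falling genes were named, so the 2 counts are not independent of each other. With E12.5 and E17.5 as 1 pool each, the test rests on 2 residual degrees of freedom, which come from the gap between the E14.5 batches and from the departure of the stages from a straight line. Without E14.5 batch 1 it called 771 genes in place of 351.

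Genes of the extracellular matrix other than the gate collagens were mostly higher at later stages. In the list of elastic fibre, glycoprotein and proteoglycan genes, 38 of 40 tested members were higher at E17.5 than at E12.5, and the list median was 1.94 against -0.23 over all genes. Of these, 24 were rising and 2 falling, and the trend test called 16 higher and 1 lower. *Postn*, periostin, had 25.4 CPM in the E12.5 library, 94.6 and 169 CPM in the E14.5 pools and 711 CPM in the E17.5 library. *Eln*, the elastin of elastic fibres, had 22.2 CPM at E12.5, 88.5 and 99.5 CPM in batches 1 and 2 of E14.5, then 382 CPM at E17.5. *Lum*, lumican, a small proteoglycan of collagen fibrils, had 62.9 CPM in the E12.5 library, 574 and 598 CPM in the E14.5 pools and 1607 CPM in the E17.5 library. *Matn2*, a matrilin that bridges matrix filaments, had 9.01 CPM at E12.5, 158 and 96.2 CPM in batches 1 and 2 of E14.5, then 314 CPM at E17.5. The exceptions in the list were *Npnt*, nephronectin, an integrin ligand of basement membranes, with 36.5 CPM in the E12.5 library, 23.3 and 23.1 CPM in the E14.5 pools and 4.80 CPM in the E17.5 library, and *Emilin1*, an elastic fibre glycoprotein, with 244 CPM at E12.5, 149 and 158 CPM in batches 1 and 2 of E14.5, then 117 CPM at E17.5. Version 2 had the same sign for all 24 rising members and for both falling members.

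Among the collagens that the gate did not use, 13 of 17 were higher at E17.5, with a median of 2.19, and the trend test called 3 higher and 1 lower. Rising members were *Col6a1*, *Col6a2*, *Col6a3*, *Col5a3* and *Col15a1*. *Col6a1*, a chain of the beaded filaments of collagen VI, had 67.6 CPM in the E12.5 library, 537 and 441 CPM in the E14.5 pools and 935 CPM in the E17.5 library. *Col5a3*, a chain of collagen V, had 0.384 CPM at E12.5, 6.43 and 1.97 CPM in batches 1 and 2 of E14.5, then 47.3 CPM at E17.5. *Col8a1*, of the network collagen VIII, was the falling member with 32.5 CPM in the E12.5 library, 14.4 and 11.6 CPM in the E14.5 pools and 4.45 CPM in the E17.5 library. The basement membrane chain *Col4a1* had 28.9 CPM at E12.5, 172 and 60.1 CPM in batches 1 and 2 of E14.5, then 191 CPM at E17.5. It was not rising by the rule, as the E14.5 batches differed widely. Without E14.5 batch 1, and so without the gap condition, 13 collagens were rising in place of 5.

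For enzymes and chaperones that make collagen the differences were smaller in size. In that list 16 of 17 members were higher at E17.5, the median was 1.00, 6 were rising and 0 falling, and 2 passed the trend test. *P4ha2*, a prolyl hydroxylase subunit, had 29.5 CPM in the E12.5 library, 108 and 116 CPM in the E14.5 pools and 238 CPM in the E17.5 library. *Plod2*, a lysyl hydroxylase, had 24.8 CPM at E12.5, 92.8 and 93.9 CPM in batches 1 and 2 of E14.5, then 137 CPM at E17.5. *Pcolce*, an enhancer of the removal of the collagen propeptide, had 279.8 CPM in the E12.5 library, 316 and 348 CPM in the E14.5 pools and 1166 CPM in the E17.5 library. *Lox*, the enzyme that crosslinks collagen and elastin, was already high at E14.5, with 6.23 CPM at E12.5, 185 and 102 CPM in batches 1 and 2 of E14.5, then 167 CPM at E17.5. The count of rising members was 9 with TMM scaling and 3 in cells thinned to 2000 UMIs.

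Of the proteases and their inhibitors, 16 of 17 were higher at E17.5, with a median of 1.53, 8 rising and 0 falling, and 5 called higher. *Mmp14*, a membrane-bound collagenase, had 147 CPM in the E12.5 library, 239.8 and 292 CPM in the E14.5 pools and 433 CPM in the E17.5 library. *Mmp23*, another membrane-bound metalloproteinase, had 15.6 CPM at E12.5, 49.6 and 39.3 CPM in batches 1 and 2 of E14.5, then 131 CPM at E17.5. *Serpinf1*, the antiangiogenic serpin PEDF, had 48.7 CPM in the E12.5 library, 89.4 and 120.1 CPM in the E14.5 pools and 339 CPM in the E17.5 library. *Mmp11* was the member that was lower at E17.5, with 79.6 CPM at E12.5, 45.6 and 90.4 CPM in batches 1 and 2 of E14.5, then 33.2 CPM at E17.5, and its E14.5 batches lay on both sides of the E12.5 level.

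**Figure D4:**
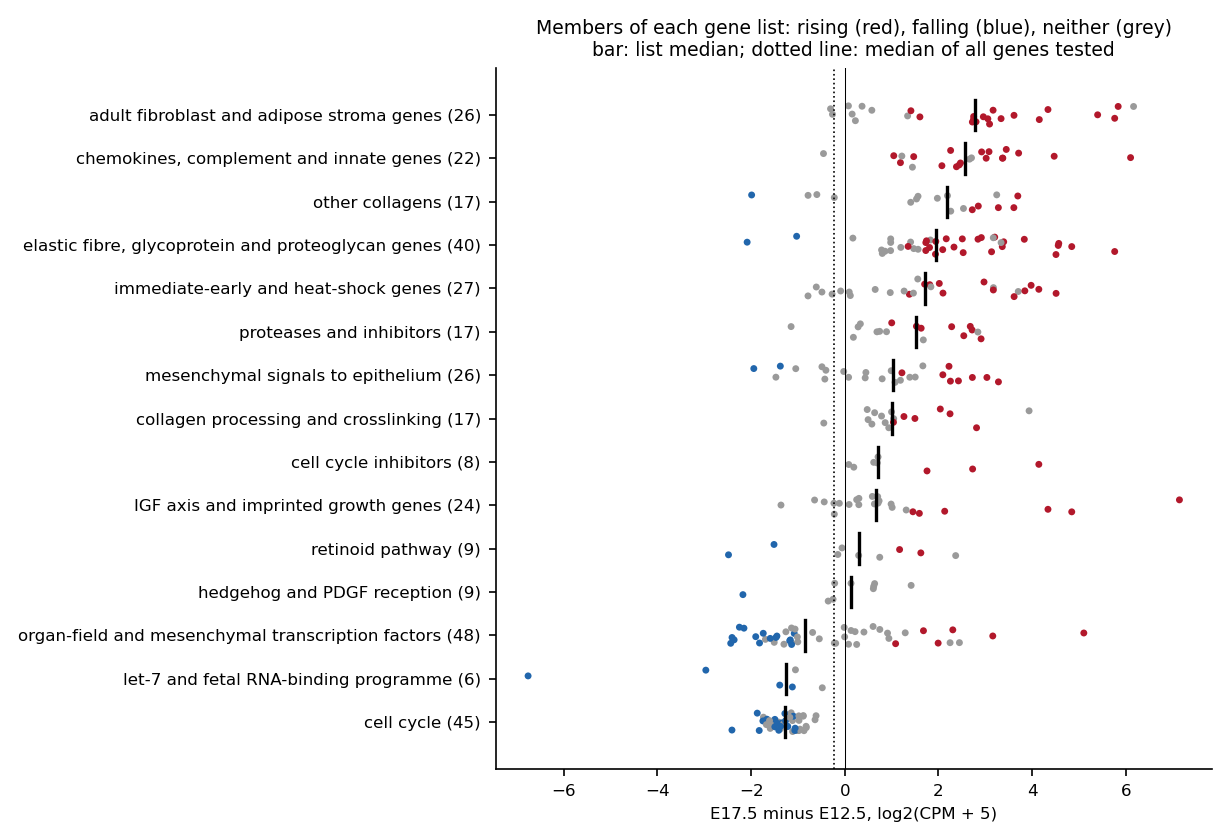
E17.5 minus E12.5 in log2(CPM + 5) for each tested member of 15 gene lists, with the number of members in brackets. Rising members are red, falling members blue and the rest grey, the bar is the list median and the dotted line the median of all genes tested (-0.23). The matrix, chemokine and adult fibroblast lists lie to the right, and the cell cycle list lies wholly left of 0.

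Genes found in adult fibroblasts and in the stroma of fat formed the list with the highest median of those plotted, 2.78, with 24 of 26 members higher at E17.5. Of these, 17 were rising and 0 falling, and 14 passed the trend test. The version 1 libraries list 42 members, and those not tested did not reach the minimum level. Members such as *Dpt*, *Clec3b*, *Igfbp6*, *Ly6a* and *Fabp4* reached it only through E17.5, so that the filter bore on these counts. *Igfbp6*, an IGF-II binding protein, had 0.767 CPM in the E12.5 library, 10.4 and 10.5 CPM in the E14.5 pools and 111.7 CPM in the E17.5 library. *Gsn*, gelsolin, which severs actin filaments, had 234 CPM at E12.5, 649.9 and 732 CPM in batches 1 and 2 of E14.5, then 2410.0 CPM at E17.5. *Lpl*, lipoprotein lipase, had 38.2 CPM in the E12.5 library, 107 and 92.2 CPM in the E14.5 pools and 383 CPM in the E17.5 library. *Fmo1*, a flavin monooxygenase, had 0.479 CPM at E12.5, 19.3 and 24.4 CPM in batches 1 and 2 of E14.5, then 92.5 CPM at E17.5. *Ly6a*, the stem cell antigen Sca-1 of mouse fibroblasts, had 0.479 CPM in the E12.5 library, 2.76 and 3.74 CPM in the E14.5 pools and 33.2 CPM in the E17.5 library. *Clec3b*, tetranectin, had 0.575 CPM at E12.5, 4.90 and 0.393 CPM in batches 1 and 2 of E14.5, then 395 CPM at E17.5. It missed the rule since its step from E12.5 to the E14.5 mean was smaller than the gap between the E14.5 batches. Summed over all 42 listed members, the gated cells held 1311 CPM at E12.5, 2063 and 2260 CPM at E14.5, then 6966 CPM at E17.5. The other cells held 2137, 3215, 2625 and 4699 CPM in the same order, more than the gated cells in all libraries but E17.5. Some members were as high or higher in other cells. *Fabp4*, the fatty acid carrier of fat and vessels, had 1.15 CPM in the E12.5 library, 3.06 and 2.85 CPM in the E14.5 pools and 42.8 CPM in the E17.5 library, against 440 CPM in the other cells at E17.5. *Apoe* had 31.5 CPM at E12.5, 109 and 111.8 CPM in batches 1 and 2 of E14.5, then 241 CPM at E17.5, against 1371 CPM in those cells. Their part in the gated values was not tested. In version 2, 16 of the 17 rising members were also higher at E17.5.

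Chemokine, complement and innate immunity genes were also mostly higher late, in 21 of 22 members with a median of 2.57. Here 17 were rising and 0 falling, and 11 were called higher. The version 1 libraries list 37 members, and those not tested did not reach the minimum level. Members such as *Cxcl1*, *C1s1*, *C1ra* and *Ccl11* reached it only through E17.5, so that the filter bore on these counts. *C1s1*, a serine protease that starts the classical complement pathway, had 1.34 CPM in the E12.5 library, 9.80 and 6.59 CPM in the E14.5 pools and 136 CPM in the E17.5 library. Its partner *C1ra* had 0.479 CPM at E12.5, 8.27 and 6.98 CPM in batches 1 and 2 of E14.5, then 66.8 CPM at E17.5. *Ccl11*, the eosinophil chemokine eotaxin, had 0.575 CPM in the E12.5 library, 7.35 and 5.999 CPM in the E14.5 pools and 55.9 CPM in the E17.5 library. *Il33*, a nuclear alarmin, had 3.74 CPM at E12.5, 13.5 and 17.8 CPM in batches 1 and 2 of E14.5, then 85.7 CPM at E17.5. *Cxcl12*, which holds blood precursors and guides vessels, was already abundant at E12.5 and had 446 CPM in the E12.5 library, 925 and 814 CPM in the E14.5 pools and 1025 CPM in the E17.5 library. The summed level of 13 immune cell markers in the gated cells was 40.8 CPM at E12.5, 52.7 and 37.5 CPM in batches 1 and 2 of E14.5, then 81.9 CPM at E17.5, with *Ptprcap* at 0 by the gate. It was thus highest in the library where the genes of this list were mostly highest, and its part in their levels was not tested.

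Genes of cell division were lower with age. Every one of 45 tested members of the cell cycle list was lower at E17.5 than at E12.5, by 0.61 to 2.41 on the log2 scale, with a median of -1.27. Of these, 21 were falling and 0 rising, and the trend test called 5 lower. In cells thinned to 2000 UMIs 11 were falling in place of 21. The summed level went from 5588 CPM at E12.5 through 4622 and 3879 CPM in batches 1 and 2 of E14.5 to 2198 CPM at E17.5. *Rrm2*, the ribonucleotide reductase subunit that supplies DNA synthesis, had 211 CPM at E12.5, 176 and 132 CPM in batches 1 and 2 of E14.5, then 35.6 CPM at E17.5. *Plk1*, a kinase of mitosis, had 64.5 CPM in the E12.5 library, 38.6 and 34.5 CPM in the E14.5 pools and 14.0 CPM in the E17.5 library. *Cenpe*, a motor protein of the kinetochore, had 107 CPM at E12.5, 54.5 and 56.6 CPM in batches 1 and 2 of E14.5, then 26.7 CPM at E17.5. *Aurka*, a kinase of the spindle poles, had 73.9 CPM in the E12.5 library, 54.2 and 41.6 CPM in the E14.5 pools and 18.5 CPM in the E17.5 library. *Ccna2*, cyclin A2, had 89.9 CPM at E12.5, 68.9 and 63.7 CPM in batches 1 and 2 of E14.5, then 24.0 CPM at E17.5. *Mki67* and *Top2a*, the usual markers of dividing cells, were not falling by the rule. *Mki67* had 57.8 CPM in the E12.5 library, 90.0 and 44.7 CPM in the E14.5 pools and 16.4 CPM in the E17.5 library, so that E14.5 batch 1 was highest.

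After thinning to 2000 UMIs, 41.4% of gated cells had a UMI of at least 1 of 6 cell cycle genes (*Mki67*, *Top2a*, *Cdk1*, *Ccnb1*, *Cenpf* and *Ube2c*) at E12.5, with a 95% exact binomial interval of 39.3% to 43.5%. The share was 43.5% (40.3% to 46.8%) in E14.5 batch 1, 29.7% (27.9% to 31.5%) in batch 2 and 21.2% (18.5% to 24.1%) at E17.5. The intervals cover counting error only. Without thinning the shares were 53.7%, 41.6%, 39.9% and 24.8% in the same order, and with cells thinned to 1000 UMIs, which kept every gated cell, they were 31.3%, 27.4%, 20.8% and 13.6%. The E17.5 share was below those of the other libraries in all 3 settings. Whether E14.5 batch 1 stood above or below E12.5, and how far the E14.5 batches were apart, changed with the setting, and thinning to 2000 UMIs left 905 of 1286 cells of batch 1. In version 2 the shares were 34.4% (31.5% to 37.4%), 31.8% (23.9% to 40.6%) and 23.2% (17.3% to 30.0%) at the 3 stages. Version 2 had 35 of the 45 genes lower at E17.5, with a median of -0.37, and 2 of them by at least 2-fold. Of all genes tested, 57.1% were lower in version 2, with a median of -0.09, and 5.6% by at least 2-fold. In version 1 cells without a UMI of those 6 genes, 7 members were falling, although the 6 genes are members themselves. With batch 2 alone at E14.5, where no gap can be asked for and the count can only grow, 34 were falling.

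**Figure D5:**
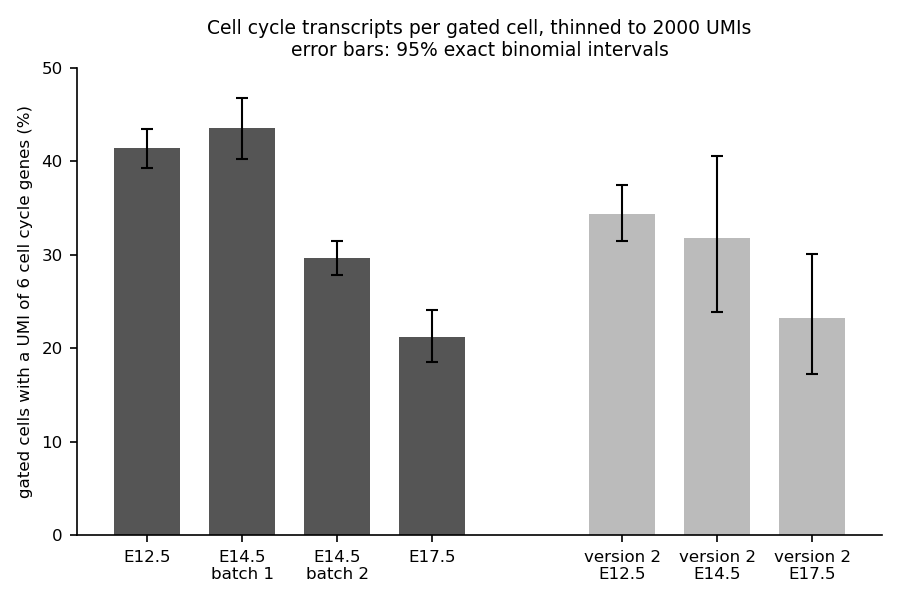
Share of gated cells, thinned to 2000 UMIs each, that had a UMI of any of 6 cell cycle genes, by library in version 1 (dark bars) and version 2 (light bars), in percent with 95% exact binomial intervals. The version 1 bars go from 41.4% at E12.5 to 21.2% at E17.5, and E14.5 batch 1 stands at 43.5%.

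Genes of mitosis often carry a CCAAT box and a cell cycle genes homology region (CHR, letters TTTGAA) close to the start site, and genes of DNA synthesis carry sites for E2F factors. The promoters of 3 falling members are printed with matches to these letters in capitals, on either strand. These 3 were the only falling members of the cell cycle list with a CHR match, among those with a RefSeq promoter. In that of *Cdk1*, the kinase that drives mitosis, 3 CCAAT boxes, 2 CHR elements and 1 E2F site (TTTCGCGC) were found. That of *Cdc20*, an activator of the anaphase-promoting complex, had 2 CCAAT boxes, of which 1 lay 53 to 49 bases before the start, and a CHR element 18 to 13 bases before it. That of *Ube2c*, a ubiquitin-conjugating enzyme of the same complex, had 6 CCAAT boxes, 2 of which overlap, and 1 CHR element.
Cdk1 promoter, chr10:69352913-69353162, minus strand, GRCm38.p6: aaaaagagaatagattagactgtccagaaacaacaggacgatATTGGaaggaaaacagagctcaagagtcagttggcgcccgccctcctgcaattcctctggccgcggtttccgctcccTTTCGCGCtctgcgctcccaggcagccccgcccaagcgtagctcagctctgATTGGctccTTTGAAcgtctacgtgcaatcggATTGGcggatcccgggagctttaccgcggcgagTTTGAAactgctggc
Cdc20 promoter, chr4:118437344-118437593, minus strand, GRCm38.p6: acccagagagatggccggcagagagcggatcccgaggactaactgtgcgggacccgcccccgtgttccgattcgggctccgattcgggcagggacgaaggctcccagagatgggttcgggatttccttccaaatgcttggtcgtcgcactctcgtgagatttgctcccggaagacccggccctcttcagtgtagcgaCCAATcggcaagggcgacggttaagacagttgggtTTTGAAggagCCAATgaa
Ube2c promoter, chr2:164769679-164769928, plus strand, GRCm38.p6: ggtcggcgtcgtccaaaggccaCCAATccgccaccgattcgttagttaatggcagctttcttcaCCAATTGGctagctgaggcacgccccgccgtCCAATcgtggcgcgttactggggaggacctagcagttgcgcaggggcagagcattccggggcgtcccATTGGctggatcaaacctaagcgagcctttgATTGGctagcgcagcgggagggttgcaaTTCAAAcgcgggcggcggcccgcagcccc
The levels were 247 CPM at E12.5, 192 and 184 CPM in batches 1 and 2 of E14.5, then 119 CPM at E17.5 for *Cdk1*, 177 CPM in the E12.5 library, 104 and 114 CPM in the E14.5 pools and 70.9 CPM in the E17.5 library for *Cdc20* and 406 CPM at E12.5, 225 and 212 CPM in batches 1 and 2 of E14.5, then 125 CPM at E17.5 for *Ube2c*. RefSeq promoters matched 18 of the 21 falling members, and of these 12 (66.7%) had a CCAAT box, 3 (16.7%) a CHR element and 5 (27.8%) an E2F site (TTTCCCGC, TTTGGCGC or TTTCGCGC). Of all 27025 promoters, 37.5%, 18.3% and 1.78% had them, and of the 6351 promoters of genes tested 41.0%, 12.4% and 3.79%. Over all 360 falling genes with a promoter the shares were 47.2%, 16.1% and 5.83%, and over 320 rising genes 36.2%, 11.9% and 1.25%. Shares in the list are a description, since members of such a list were picked for their part in the cell cycle. The CHR share of the falling members, 16.7%, was near the shares of all promoters and of genes tested. *Cdk1* stood just inside the 2-fold limit, at -1.03 on the log2 scale, or at -0.76 with TMM scaling and -0.89 in thinned cells.

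In the list of cell cycle inhibitors, by contrast, 8 of 8 members were higher at E17.5, with a median of 0.70, 3 rising and 1 called. The rising members were *Cdkn2c*, *Gas6* and *Btg2*, of which *Btg2* is also on the immediate-early list given below. *Cdkn1c*, the imprinted inhibitor p57, was abundant throughout and had 6842 CPM in the E12.5 library, 9685 and 10040.3 CPM in the E14.5 pools and 11206 CPM in the E17.5 library. *Cdkn2c*, the inhibitor p18, had 6.52 CPM at E12.5, 27.3 and 23.9 CPM in batches 1 and 2 of E14.5, then 33.9 CPM at E17.5. In version 2 *Cdkn1c* had 3560.3, 4065 and 2129 CPM, lower at E17.5 than at E12.5. *Gas6*, which encodes a ligand of the TAM receptors and not an inhibitor of the cell cycle, had 14.9 CPM in the E12.5 library. It had 44.4 and 76.0 CPM in the E14.5 pools and 127 CPM in the E17.5 library.

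Transcription factors of the organ field and mesenchyme had members in both directions. Of 48 tested, 30 were lower and 18 higher at E17.5, with a median of -0.84. By the rule 15 were falling and 6 rising, or 11 and 7 with TMM scaling, and the trend test called 5 lower and 0 higher. *Nkx2-5*, a homeobox factor of the spleen and pancreas field, had 59.5 CPM at E12.5, 30.6 and 23.9 CPM in batches 1 and 2 of E14.5, then 7.54 CPM at E17.5. *Isl1*, which the dorsal pancreatic mesenchyme needs, had 106 CPM in the E12.5 library, 70.1 and 70.3 CPM in the E14.5 pools and 26.4 CPM in the E17.5 library, with 242 CPM in the other cells at E17.5, among them endocrine cells that also use it. *Meis2*, a homeobox partner of Pbx factors, had 327 CPM at E12.5, 188 and 184 CPM in batches 1 and 2 of E14.5, then 84.0 CPM at E17.5. *Sox4* and *Sox11*, which mark immature cells of many kinds, had 748 CPM in the E12.5 library, 457 and 429 CPM in the E14.5 pools and 134 CPM in the E17.5 library and 125 CPM at E12.5, 58.5 and 34.2 CPM in batches 1 and 2 of E14.5, then 22.3 CPM at E17.5. *Tbx3*, a T-box factor, had 30.6 CPM in the E12.5 library, 20.8 and 15.2 CPM in the E14.5 pools and 1.71 CPM in the E17.5 library. The Hox gene *Hoxb5* had 87.2 CPM at E12.5, 65.5 and 75.3 CPM in batches 1 and 2 of E14.5, then 28.8 CPM at E17.5. *Tcf21*, a factor of visceral mesenchyme, was falling but kept 622 CPM in the E12.5 library, 379 and 434 CPM in the E14.5 pools and 292 CPM in the E17.5 library. *Barx1*, a factor of the stomach mesenchyme, had 136 CPM at E12.5, 186 and 184 CPM in batches 1 and 2 of E14.5, then 59.6 CPM at E17.5, so that the highest level was at E14.5. All 15 falling factors were lower at E17.5 in version 2 as well.

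The 6 rising factors were *Klf2*, *Ebf1*, *Nfix*, *Ebf2*, *Islr* and *Gata6*, of which *Islr* encodes a surface protein of mesenchymal cells and not a transcription factor. *Ebf1*, a factor of fat and fibroblast precursors, had 26.4 CPM in the E12.5 library, 125 and 144 CPM in the E14.5 pools and 276 CPM in the E17.5 library. *Nfix*, which acts late in the development of several tissues, had 7.58 CPM at E12.5, 43.8 and 36.2 CPM in batches 1 and 2 of E14.5, then 57.2 CPM at E17.5. *Gata6*, needed for the early pancreas, had 32.2 CPM in the E12.5 library, 65.5 and 61.7 CPM in the E14.5 pools and 74.0 CPM in the E17.5 library. Version 2 had the same sign for 4 of the 6, with *Gata6* and *Klf2* lower at E17.5.

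Signals that mesenchyme sends to the epithelium went in both directions. Of 26 tested, 18 were higher and 8 lower at E17.5, 8 were rising and 2 falling, and 7 passed the trend test upward and 0 downward. *Fgf7*, keratinocyte growth factor, which stimulates epithelia through FGFR2b, had 0.0959 CPM at E12.5, 1.84 and 1.38 CPM in batches 1 and 2 of E14.5, then 44.5 CPM at E17.5. *Gdf10*, a BMP-related ligand, had 4.89 CPM in the E12.5 library, 17.46 and 19.4 CPM in the E14.5 pools and 76.1 CPM in the E17.5 library. *Figf*, the lymphatic growth factor VEGF-D, had 7.58 CPM at E12.5, 29.4 and 28.1 CPM in batches 1 and 2 of E14.5, then 78.1 CPM at E17.5. *Kitl*, the ligand of the receptor Kit, had 14.4 CPM in the E12.5 library, 40.7 and 30.3 CPM in the E14.5 pools and 77.8 CPM in the E17.5 library. *Dkk3*, a secreted protein of the Dickkopf family, had 5.95 CPM at E12.5, 24.2 and 17.1 CPM in batches 1 and 2 of E14.5, then 47.3 CPM at E17.5. *Sfrp1*, a decoy for Wnt ligands, was falling with 1294 CPM in the E12.5 library, 724 and 735 CPM in the E14.5 pools and 333 CPM in the E17.5 library. *Mdk*, the growth factor midkine, had 2755 CPM at E12.5, 2707 and 2887 CPM in batches 1 and 2 of E14.5, then 991 CPM at E17.5, a level it kept to E14.5, whereas its relative *Ptn*, pleiotrophin, had 2902 CPM in the E12.5 library, 4660.2 and 5346 CPM in the E14.5 pools and 5052 CPM in the E17.5 library. *Fgf10*, the FGF of the early bud mesenchyme, did not reach the minimum level for testing. In version 2 the list median was -0.20 against 1.03 in version 1, and 10 of 26 members were higher. Over all genes tested, the version 2 median was -0.09 and 42.9% were higher, so this list was near them.

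The list of hedgehog and PDGF reception also holds PDGF ligands. Of its 9 tested genes, 5 were higher and 4 lower at E17.5, with a median of 0.13 that became -0.04 when the gate asked for 10 collagen UMIs. The ligand gene *Pdgfc* was the only falling member, also called by the trend test, with 28.4 CPM at E12.5, 13.2 and 15.1 CPM in batches 1 and 2 of E14.5, then 2.40 CPM at E17.5. *Gli3*, the main repressor of the hedgehog pathway, had 16.1 CPM in the E12.5 library, 25.7 and 20.9 CPM in the E14.5 pools and 18.2 CPM in the E17.5 library. In the retinoid pathway 2 of 9 genes were rising, 2 falling and 0 called. *Crabp2*, which carries retinoic acid to its receptors, had 28.7 CPM at E12.5, 9.49 and 15.6 CPM in batches 1 and 2 of E14.5, then 1.03 CPM at E17.5. *Rdh10*, which makes retinaldehyde, had 117 CPM in the E12.5 library, 91.9 and 103 CPM in the E14.5 pools and 37.7 CPM in the E17.5 library. *Aldh1a2*, the main synthetic enzyme of retinoic acid in mesenchyme, was highest at E14.5, with 9.11 CPM at E12.5, 36.4 and 33.2 CPM in batches 1 and 2 of E14.5, then 12.3 CPM at E17.5.

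In the list of the IGF axis and imprinted growth genes, 18 of 24 were higher at E17.5, with a median of 0.67, 6 rising, 0 falling and 5 called. Lists can share members, and the rising members *Igfbp7*, *Dcn* and *Igfbp6* were already named above. *Dlk1*, a Notch-related inhibitor of fat cell formation, had 3484 CPM in the E12.5 library, 4873 and 6339 CPM in the E14.5 pools and 10520.5 CPM in the E17.5 library. *Ndn*, the growth suppressor necdin, had 333 CPM at E12.5, 646 and 821 CPM in batches 1 and 2 of E14.5, then 1478 CPM at E17.5. *Igf2*, the fetal growth factor, had 661 CPM in the E12.5 library, 1556 and 915 CPM in the E14.5 pools and 1338 CPM in the E17.5 library. The noncoding RNA *H19*, of the same imprinted locus, had 1414 CPM at E12.5, 3581 and 2568 CPM in batches 1 and 2 of E14.5, then 3518 CPM at E17.5. In both the E14.5 batches were farther apart than their mean from E17.5. Version 2 had 13 of the 24 genes higher at E17.5, with a median of 0.11, against 42.9% and -0.09 over all genes tested.

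Immediate-early and heat-shock genes answer within minutes to tissue handling, and the time in the enzyme was 10, 15 and 30 minutes at the 3 stages. Of 27 tested, 22 were higher at E17.5 than at E12.5, with a median of 1.71, 12 rising, 0 falling and 4 called. The summed level went from 6913 CPM at E12.5 through 12803 and 14096 CPM in batches 1 and 2 of E14.5 to 16442 CPM at E17.5. *Junb*, a subunit of the AP-1 factor, had 110.1 CPM in the E12.5 library, 533 and 777 CPM in the E14.5 pools and 2621 CPM in the E17.5 library. *Egr1*, another immediate-early factor, had 44.2 CPM at E12.5, 309 and 444 CPM in batches 1 and 2 of E14.5, then 598 CPM at E17.5. *Zfp36*, which destabilises inflammatory transcripts, had 19.1 CPM in the E12.5 library, 47.5 and 80.9 CPM in the E14.5 pools and 212 CPM in the E17.5 library. *Fos* had 188 CPM at E12.5, 1250.4 and 2378 CPM in batches 1 and 2 of E14.5, then 2514 CPM at E17.5, with the E14.5 batches apart from each other. *Jun* had 437 CPM in the E12.5 library, 1342 and 1496 CPM in the E14.5 pools and 1296 CPM in the E17.5 library. Among heat-shock genes, *Hspa8* had 938 CPM at E12.5, 1713 and 849 CPM in batches 1 and 2 of E14.5, then 883 CPM at E17.5 and *Hsp90aa1* 539 CPM in the E12.5 library, 358 and 466 CPM in the E14.5 pools and 383 CPM in the E17.5 library. The other cells, which shared the dissociation, held 2594 CPM of *Junb* and 2072 CPM of *Fos* at E17.5. In version 2, with the same times in the enzyme, 20 of the 27 genes were higher at E17.5, among them 11 of the 12 rising members. Of all genes tested, 42.9% were higher there. How far the time in the enzyme had a part in these values cannot be told apart from stage. *Btg2*, an antiproliferative gene that is also on the list of cell cycle inhibitors, had 13.0 CPM at E12.5, 82.7 and 54.9 CPM in batches 1 and 2 of E14.5, then 314 CPM at E17.5. Its promoter is shown because immediate-early genes respond to cyclic AMP through the letters TGACGTCA, in capitals here, 166 to 159 bases before the start.
Btg2 promoter, chr1:134079156-134079405, minus strand, GRCm38.p6: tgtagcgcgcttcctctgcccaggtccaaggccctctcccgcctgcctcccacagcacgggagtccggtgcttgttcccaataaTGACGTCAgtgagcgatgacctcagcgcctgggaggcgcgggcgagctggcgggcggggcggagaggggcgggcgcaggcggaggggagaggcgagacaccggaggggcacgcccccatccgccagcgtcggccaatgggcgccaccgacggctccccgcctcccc
Those letters, which read the same on either strand, occurred in 1.77% of all promoters, in 3.37% of those of genes tested and in 1 of 10 rising members of the list with a promoter in the table.

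The gate left out cells with much *Acta2*, and none of 8 tested smooth muscle and pericyte markers was rising or falling, although 7 were higher and 1 lower at E17.5 than at E12.5, with a median of 0.37. All 12 listed markers, with the gate gene *Acta2* among them, summed to 758 CPM at E12.5, 1069 and 906 CPM in batches 1 and 2 of E14.5, then 928 CPM at E17.5. Without *Acta2* the sums were 733, 1010, 866 and 839 CPM in the same order. *Rgs5*, a pericyte gene and the lower one, had 104 CPM in the E12.5 library, 179 and 111 CPM in the E14.5 pools and 73.0 CPM in the E17.5 library, and *Des*, desmin, had 209 CPM at E12.5, 224 and 285 CPM in batches 1 and 2 of E14.5, then 228 CPM at E17.5. Erythroid markers other than haemoglobin moved with stage beside all rising genes. *Alas2*, the enzyme of haem synthesis in red cells, had 7.96 CPM in the E12.5 library, 42.9 and 54.9 CPM in the E14.5 pools and 149 CPM in the E17.5 library, against 605 CPM in the other cells at E17.5, and 3 of 4 tested erythroid markers were rising, or 1 of 4 in cells thinned to 2000 UMIs. Their part in the rising genes was not tested. Of the rising genes, 90 were not above the other cells in the library where they were highest, and 80 of the falling genes, and these were not named among the leading genes.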

How the data were processed

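The 4 version 1 libraries and the 3 version 2 stages were used, with the 2 wells of version 2 E17.5, technical replicates of 1 suspension, summed. The Fev-Cre library was not used here. The deposited matrices hold raw UMI counts per gene and cell barcode, which the authors made with Cell Ranger 1.1 (version 1) or 2.1 (version 2) at default settings on the prebuilt mm10 reference. Barcodes and gene names come from the matching deposited lists, which carry no measurement. The version 1 matrices list 27775 genes.

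Gated counts were summed per library with Python 3.11.15, pandas 2.3.3 and scipy 1.17.1, and 10 haemoglobin genes were left out. Genes needed a mean of at least 10 CPM and at least 40 UMIs, which 8218 met. Fold changes on log2(CPM + 5) understate changes of low genes. The trend with embryonic day was fitted with edgeR 4.0.16 under R 4.3.3 (TMM, glmQLFit, glmQLFTest) without a batch term, and tested on simulated data. DESeq2 1.42.0 was an alternative. No doublet caller was run. The gate removes doublets only where they had a UMI of its exclusion genes, and leaving out the 5% of cells with the most UMIs was tried. Depth was as given above, and intervals cover counting error only. Samples were grouped by the labels. The 24 leading genes are those with the largest differences per direction, after leaving out gate genes, haemoglobin genes, predicted gene models and genes not above the other cells of their highest library. Within a list, up to 4 monotone or called members with the largest difference were named, plus members that a sentence needed. A few members are not reported here. Genes, lists and tests were chosen with earlier results of these data known. Gene positions are from GENCODE M21 and promoter and microRNA sequences from RefSeq (GRCm38.p6).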

Additional observations from a re-analysis of the deposited data

Results flagged for a closer look

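Of the 917 rising and falling genes of version 1, 9 differed by at least 2-fold in the other direction in the CD140a-depleted version 2 pools, between the same stages. The difference between the kits was not tested, since version 2 has 1 pool per stage, 181 gated cells at E17.5 and another selection of cells. The rising genes with lower version 2 levels at E17.5 were *Klf2* (-1.12 on the log2 scale), *Cebpb* (-1.48), *Fgf18* (-1.23), *Nbl1* (-1.08) and *Rab33a* (-1.52). *Cebpb*, a factor of inflammation and of fat cell formation, had 45.1 CPM at E12.5, 244 and 203 CPM in batches 1 and 2 of E14.5, then 422 CPM at E17.5 in version 1, and 17.2, 1.56 and 2.93 CPM at the 3 stages in version 2. *Fgf18*, an FGF of mesenchyme, had 2.59 CPM in the E12.5 library, 10.4 and 9.93 CPM in the E14.5 pools and 30.5 CPM in the E17.5 library in version 1, and 6.75, 3.12 and 0 CPM in version 2. The falling genes with higher version 2 levels at E17.5 were *Tgfb2* (1.48), *Fign* (1.95), *Mboat2* (1.39) and *Clca3a1* (1.03). *Tgfb2*, a TGF-beta ligand, had 56.9 CPM at E12.5, 20.2 and 23.0 CPM in batches 1 and 2 of E14.5, then 18.8 CPM at E17.5 in version 1, and 32.4, 40.5 and 99.0 CPM in version 2.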

How the results depend on the processing

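No paired analysis was possible because the version 1 stages share only batch number 2, that is fewer than 2 replicate numbers. A fit with batch as a term beside embryonic day called 744 genes in place of 351. The count of trend calls was 159 on library totals without TMM, 842 without a filter on low counts, 873 with DESeq2, 807 with stage as 3 groups and 703 with 7 libraries of both kits. Leaving out each E14.5 library in turn gave 271 to 771 calls, the higher count without batch 1, that is from batch 2 alone. Calls higher with age outnumbered calls lower with age in each of these fits. An unadjusted p below 0.05 was reached by 1809 genes. Rising and falling genes numbered 545 with a pseudocount of 20 and 573 among genes with a mean of at least 30 CPM, against 917, and 1139 to 1295 with each E14.5 library left out, where no gap can be required and the count can only grow. The share of them at least 2-fold alike in version 2 was 50.6% with TMM scaling against 47.1%, and the share of cells with cell cycle transcripts differed between E12.5 and E17.5 by 28.95 percentage points without thinning against 20.2. Rising genes became the larger set with TMM scaling, as given above, with a pseudocount of 20 (321 against 224) and without a filter on low values (588 against 574). Among 177 named genes no difference took the opposite sign under the alternatives run for it. *Cdk1* and *Ube2c* came to 0 in cells chosen to lack them. Medians of lists close to 0 did change sign. That of the hedgehog and PDGF list became -0.04 with 10 collagen UMIs, and those of the 4 epithelial markers (-0.11) and of *Egfl7*, the 1 endothelial marker tested (0.02), became 0.03 and -0.05 in thinned cells. Settings for the gene lists were chosen after seeing the data. With 1 pool at E12.5 and at E17.5, differences between pools of these stages cannot be told apart from stage, and the 5-UMI collagen limit bore hardest on E12.5. The cause of these changes was not tested.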

Other observations

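Some genes of the gated cells were neither rising nor falling but highest at E14.5. They were picked after their values were seen, as those at least 2-fold higher in both E14.5 batches than in both other stages, which 11 of 8218 genes were, and 1 gene, *Rpl35a*, a ribosomal protein, was lower there in the same way. *Sfrp2*, a secreted modulator of Wnt signals, had 42.3 CPM in the E12.5 library, 347 and 222 CPM in the E14.5 pools and 94.6 CPM in the E17.5 library. *Sema3a*, a guidance cue for axons and vessels, had 5.85 CPM at E12.5, 30.9 and 19.3 CPM in batches 1 and 2 of E14.5, then 2.74 CPM at E17.5. *Rarb*, a retinoic acid receptor, had 23.4 CPM in the E12.5 library, 54.2 and 53.7 CPM in the E14.5 pools and 22.3 CPM in the E17.5 library. The retinoic acid synthase *Aldh1a2* was also among the 11. Both were picked for being highest in these libraries, and a link between them was not tested. *Alcam*, an adhesion molecule, had 37.6 CPM at E12.5, 262 and 169.8 CPM in batches 1 and 2 of E14.5, then 81.2 CPM at E17.5. *Egfl6*, a matrix protein with EGF repeats, had 10.4 CPM at E12.5, 49.9 and 72.5 CPM in batches 1 and 2 of E14.5, then 18.8 CPM at E17.5. In the other cells these 5 genes except *Alcam* were at most 20.9 CPM in any library. The keratin genes *Krt7* and *Krt19*, which mesothelium and epithelium use, were among the 11 as well, with 29.4 and 22.5 CPM and with 20.2 and 19.8 CPM at E14.5. So were *Cav1*, *F11r* and *Sbspon*. *Krt7*, *Krt19*, *F11r* and *Sbspon* were higher in the other cells of every library. The summed level of 11 mesothelial markers, a list that holds *Krt7*, *Krt19* and *Aldh1a2*, in the gated cells was likewise highest at E14.5, with 130 CPM at E12.5, 266 and 215 CPM in batches 1 and 2 of E14.5, then 101 CPM at E17.5, and its part in these values was not tested.

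A total of 9 genes passed the trend test upward without meeting the rule, most with E14.5 levels close to that of E12.5. *Clec3b* was described with the adult fibroblast genes. *Clec3b*, *S100a8*, *S100a9*, *Msc* and *Vtn* reached the minimum mean level for testing only through E17.5. Genes this low in the earlier libraries could enter the test only by being higher at E17.5, so the filter bore on their direction. *S100a8* and *S100a9*, a pair of neutrophil proteins, had 56.9 and 63.7 CPM at E17.5 and at most 1.84 and 1.23 CPM in any earlier library. The immune cell markers were also highest at E17.5 in the gated cells, with 81.9 CPM against 6719 CPM in the other cells. Their part in the levels of *S100a8* and *S100a9* was not tested. *Msc*, musculin, a bHLH repressor, had 0.384 CPM at E12.5, 1.53 and 0.492 CPM in batches 1 and 2 of E14.5, then 40.4 CPM at E17.5. *Vtn*, the adhesive protein vitronectin, had 1.15 CPM at E12.5, 5.51 and 1.97 CPM in batches 1 and 2 of E14.5, then 40.8 CPM at E17.5.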
